A study of Mus musculus with 24 samples.

Results

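TM3 is an immortalised mouse Leydig cell line, and the comparison described here is that of TM3 cells 4 h after exposure to a nanosecond pulsed electric field (nsPEF) with TM3 cells taken immediately after it (0 h). The samples were chosen by their titles, which gave 8 of the 24 arrays of the series, 4 nsPEF arrays at 0 h and 4 at 4 h. Cells of both groups had received 80 pulses of 60 ns at 14 kV/cm while suspended in a cuvette. The 8 sham arrays of the same times, from cells handled in the same way without pulses, were the reference for the change with time, and the arrays of 24 h entered the fit only. No group carried an allele, transgene or drug, each array held the RNA of 1 of 4 biological replicates, and each TM3 sample is the same line, so replicates differ in culture and handling and not in genotype. Each RNA was labelled with Cy3 and hybridised alone to a one-colour Agilent mouse array.

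Suspension, a cuvette and a return to culture are themselves stimuli. Immediate-early genes such as Fos, Jun and Egr1 encode transcription factors and feedback regulators whose transcripts appear within minutes of a stimulus without new protein synthesis and decay quickly. The integrated stress response is a separate programme, in which phosphorylation of the translation factor eIF2alpha lowers bulk translation while the transcription factor ATF4 is made, and ATF4 raises genes of amino acid uptake and synthesis and of glutathione turnover, among them Chac1. Genes of ribosome biogenesis and of the actin cytoskeleton commonly rise when cells re-attach and start to grow.

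A level below is log2 of the processed signal of a probe minus log2 of the 75th percentile of its array, and a change is the level at 4 h minus the level at 0 h on that log2 scale, so that 1 is a 2-fold change. Of 56605 probes, 29431 (52.0%) were well above background on all 4 nsPEF arrays of 0 h or on all 4 of 4 h and were tested. They stood for 13934 genes with a symbol. Of the tested probes, 25731 passed at both times, 2349 only through the 0 h arrays and 1351 only through the 4 h arrays. Those that were well above background on all 16 sham and nsPEF arrays of 0 h and 4 h are called well-detected (25595 probes, 12682 genes). The 75th percentile of the processed signal was 300.2 to 501 on the nsPEF arrays of 0 h and 363 to 434 on those of 4 h (exact permutation test, two-sided, p = 0.943, n = 4 and 4). On the sham arrays it was 377 to 438 at 0 h and 455 to 787 at 4 h (p = 0.0286 by the same exact test), and the part of this shift in the differences from sham was not tested. All 8 arrays of 1 time were on 1 slide, which means that slide and time cannot be told apart, and sham and nsPEF arrays lay in different rows of each slide, so treatment and place on the slide cannot be told apart either. Spots marked as not uniform numbered 180 to 347 on the nsPEF arrays of 4 h against 62 to 138 at 0 h (two-sided exact permutation p = 0.0286, which is the lowest value possible with 4 against 4), and they were left out. All groups are of bulk RNA, in which fewer cells of a kind and less RNA per cell cannot be told apart.

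Of 11 Leydig cell markers, 5 were above background on all 8 nsPEF arrays, among them Star, the carrier of cholesterol into mitochondria, Cyp17a1, a steroid hydroxylase, and Nr5a1, the steroidogenic transcription factor. The probes of Cyp11a1, Hsd3b1, Hsd3b6, Hsd17b3 and Lhcgr were above background on none, so the receptor for luteinising hormone and most of the steroidogenic enzymes were not detected. Star and Nr5a1 were dim, with mean levels of -3.44 and -2.67 on the nsPEF arrays of 0 h, against 1.36 for Cyp17a1. Mesenchymal markers were above background for 6 of 7 genes, those of macrophages for 3 of 5, of Sertoli cells for 2 of 6, of endothelium for 1 of 5 and of germ cells for 0 of 6. The label of a Leydig line thus held for part of its markers.

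Between 0 h and 4 h the transcripts of the nsPEF-exposed cells were rearranged on a wide scale, and the sham-treated cells changed in nearly the same way. Immediate-early genes fell by up to 141-fold, genes of DNA replication, mitosis and DNA repair fell by smaller amounts, and genes of ribosome biogenesis and the natriuretic peptide gene Nppb rose. In nsPEF cells 20735 of 29431 probes (70.5%) passed the test, 10830 higher (36.8%) and 9905 lower (33.7%) at 4 h by limma with Benjamini-Hochberg adjustment at 0.05. At least 2-fold changes were called for 2966 higher (10.1%) and 2641 lower (8.97%), against 2542 and 2500 in sham cells. Among well-detected probes they were called in nsPEF cells for 2184 higher (8.53%) and 1710 lower (6.68%), against 2058 and 1611 in sham cells. In sham cells 20500 probes passed (69.7%). No probe passed for the difference between the changes (0%), although 2634 had an unadjusted p under 0.05 (8.95%). The smallest adjusted p was 0.0540, at which 7 probes were tied.

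The sizes of the changes were close as well as their directions. Over the well-detected probes the median size of the change was 0.434 in nsPEF and 0.429 in sham cells, and the median size of the difference between the changes was 0.106. The changes in nsPEF and sham cells had a Pearson r of 0.954 and a Spearman rho of 0.937 across these 25595 probes. These are descriptions across probes, which are not independent, and the points share 2 slides. A slope of 0.972 was found when the nsPEF change was set against the sham change, and of 1.02 by total least squares, which treats both as measured with error. The 95% interval of the difference had a median half-width of 0.256, and for 92.8% of the probes it lay wholly between a 2-fold lower and a 2-fold higher change. The test called 70.2% of them in nsPEF and 70.5% in sham cells. Of the probes called in both, 15852 moved in the same direction and 14 in opposite directions, and 2103 were called in nsPEF cells only, which is no test of a difference.

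**Figure D1:**
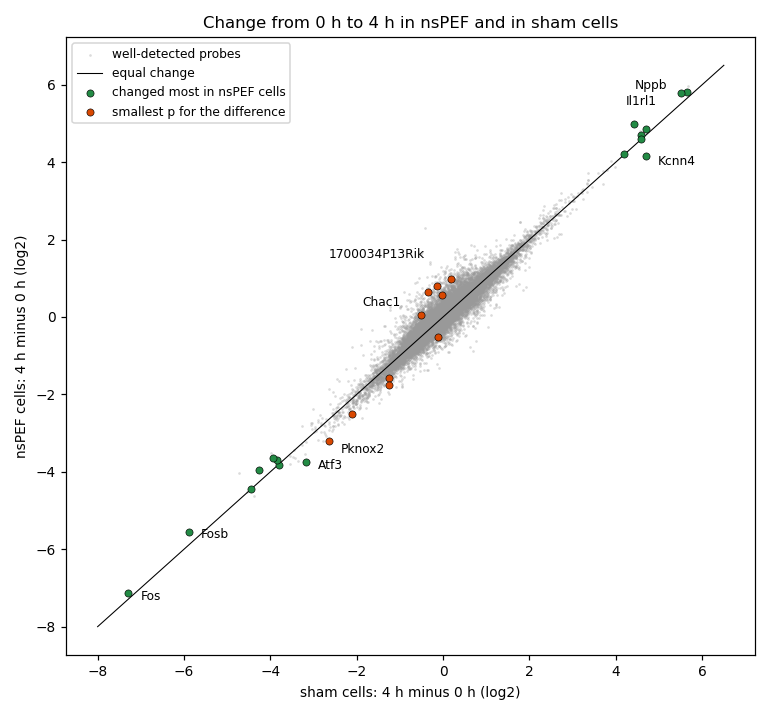
Change from 0 h to 4 h of each well-detected probe in sham cells (x axis, log2) and in nsPEF cells (y axis, log2), with the line of equal change. The 16 genes that changed most in nsPEF cells (green) run along the line, from Fos at -7.14 to Nppb at 5.81. Among them Atf3 (-0.57), Ptpn22 (0.57) and Kcnn4 (-0.54) differ most between the 2 axes. The 10 with the smallest p for the difference (orange) lie off the line, by -0.31 for Rab3a, the smallest in size, to 1.00 for Rpph1. Of 25595 probes 95.7% differ by less than 0.5 between the 2 axes.

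Fos, which encodes a subunit of the AP-1 transcription factor, fell most of all well-detected genes. Its levels were 6.13, 6.15, 6.07 and 6.17 on the 4 nsPEF arrays of 0 h and -1.05, -0.85, -1.13 and -1.02 on those of 4 h. The groups did not come near each other, and the change was -7.14 ± 0.10 (SE, n = 4 and 4), or 141-fold lower, with an adjusted p of 4.65e-21 by limma. In sham cells the change was -7.29, which differed from that in nsPEF cells by 0.15 (95% interval -0.15 to 0.44). The sequence of the 250 bases before the start of Fos (RefSeq, GRCm38.p6, chr12:85473640-85473889, plus strand) is printed because Fos carried the greatest change, with TGACG, the half-site of the cAMP response element, in capitals wherever it stands on either strand.
Fos: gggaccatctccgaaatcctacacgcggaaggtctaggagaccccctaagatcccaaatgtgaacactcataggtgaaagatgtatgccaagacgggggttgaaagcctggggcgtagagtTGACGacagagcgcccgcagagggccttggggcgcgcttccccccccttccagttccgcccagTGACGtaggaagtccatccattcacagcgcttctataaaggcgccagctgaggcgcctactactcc
This window held TGACG at 129 and 66 bases before the start, counted to the first base of the match. Neither the full element TGACGTCA nor the AP-1 letters TGANTCA stood in it. Among 32851 promoter windows of the same length, 17.8% held TGACG, 1.55% TGACGTCA and 6.75% TGANTCA.

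Other AP-1 genes fell with it. Fosb, a relative of Fos, stood at 3.33, 3.42, 3.41 and 3.41 at 0 h and at -2.17, -2.29, -2.32 and -1.89 at 4 h. All nsPEF arrays of 4 h were thus far below those of 0 h, and also above all 4 sham arrays of 4 h, which read -2.58, -2.45, -2.65 and -2.52. The nsPEF change of Fosb was -5.56 ± 0.10 (SE) against -5.88 in sham, and the difference of 0.33 did not pass (adjusted p = 0.494), while nsPEF minus sham at 4 h alone was 0.38 (adjusted p = 0.0325, limma). Jun, the partner of Fos in AP-1, read 6.05, 6.14, 5.96 and 6.01 at 0 h and 2.28, 2.24, 2.13 and 2.21 at 4 h. It changed by -3.82 ± 0.05 (SE), and sham cells by -3.79.

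Feedback regulators made up most of the other genes that fell most. Zfp36, an RNA-binding protein that shortens the life of AU-rich transcripts, changed by -4.44 ± 0.09 (SE) and by -4.44 in sham. Btg2, an antiproliferative gene, changed by -3.95 ± 0.08 against -4.26 in sham. Dusp1, a phosphatase of MAP kinases, changed by -3.65 ± 0.07 against -3.95 in sham. The first of these had an equal fall in both, and the other two fell less in nsPEF cells, with differences of 0.31 (95% interval 0.08 to 0.53) and 0.30 (0.08 to 0.51) that did not pass after adjustment (adjusted p = 0.422 and 0.403). A second well-detected probe of Btg2 changed by -4.53 in nsPEF and by -4.54 in sham cells, a difference of 0.01. Egr1, a zinc finger transcription factor, changed by -3.71 ± 0.08 against -3.85.

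Atf3, a stress-induced transcription factor of the ATF family, fell as well, but by more in nsPEF than in sham cells. Its nsPEF levels at 0 h were 1.74, 2.07, 2.40 and 2.53, against 1.79, 1.63, 1.81 and 1.73 in sham cells. At 4 h all nsPEF arrays read between -1.64 and -1.54. The nsPEF arrays of 0 h were the more spread, 3 of 4 lying above every sham array, and those of 4 h overlapped the sham arrays. Atf3 therefore changed by -3.76 ± 0.12 (SE) in nsPEF and by -3.19 in sham cells. The difference of -0.57 (95% interval -0.93 to -0.22) had an unadjusted p of 0.00326 and an adjusted p of 0.331 by limma, and the nsPEF minus sham difference at 0 h was 0.44 (adjusted p = 0.163).

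Among 35 tested immediate-early genes, 22 fell (19 at least 2-fold), 8 rose and 5 did not pass, with a median change of -1.23, against a median of -0.01 over all 13934 tested genes, of which 37.4% rose and 38.4% fell. The sham median was -1.15, and 35.3% of all genes rose and 39.7% fell in sham cells. Beyond the member of each list that rose most and the one that fell most, the list members named here and below were chosen after their values were seen. Not all members were at their highest at 0 h. Fosl1, a late-induced relative of Fos, rose by 3.00 ± 0.09 (SE), Fosl2 by 1.30, Ccn2, a matricellular protein gene, by 2.12 and Myc by 1.10. Of 16 regulators of MAP kinase feedback, 11 rose and 4 fell, and the counts in sham cells were the same. Errfi1, an inhibitor of the EGF receptor, rose most, by 2.64.

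Nppb, the gene of brain natriuretic peptide, rose most of the well-detected genes. It read -3.95, -4.04, -3.96 and -4.12 at 0 h and 1.92, 1.86, 1.67 and 1.69 at 4 h. Every array of 4 h was above every array of 0 h, and the change was 5.81 ± 0.11 (SE), or 55.9-fold, with an adjusted p of 8.71e-20 by limma. In sham cells it was 5.65. Il1rl1, the receptor of interleukin-33, rose from -1.19, -1.28, -1.04 and -1.0 to 4.67, 4.72, 4.61 and 4.65, which is 5.79 ± 0.07 (SE) or 55.4-fold. All its nsPEF arrays of 4 h stood above the sham arrays of 4 h, which read 4.56, 4.51, 4.38 and 4.30. The difference of its changes, 0.28 (95% interval 0.08 to 0.48), did not pass (adjusted p = 0.406). Serpinb2, an inhibitor of plasminogen activators, went from 1.39, 1.61, 1.51 and 1.53 to 6.24, 6.21, 6.23 and 6.20. Its rise of 4.71 ± 0.06 (SE) compares with 4.57 in sham cells.

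The other 5 genes that rose most did so by 4.15 to 4.99. They were Ptpn22, a phosphatase of lymphocyte signalling (4.99), Plet1 (4.85), Slc16a11, a monocarboxylate transporter (4.59), Pmepa1, an inhibitor of TGF-beta signalling (4.21), and Kcnn4, a calcium-activated potassium channel (4.15). In sham cells they rose by 4.42, 4.69, 4.57, 4.18 and 4.70. The gap between the changes was widest for Ptpn22 (0.57) and Kcnn4 (-0.54), and in each the arrays of 1 group of 0 h were spread. Ptpn22 read -1.45 on sham replicate 1 of 0 h and -3.85 to -3.50 on the other sham arrays, and Kcnn4 read -4.43 to -2.52 on the nsPEF arrays of 0 h.

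**Figure D2:**
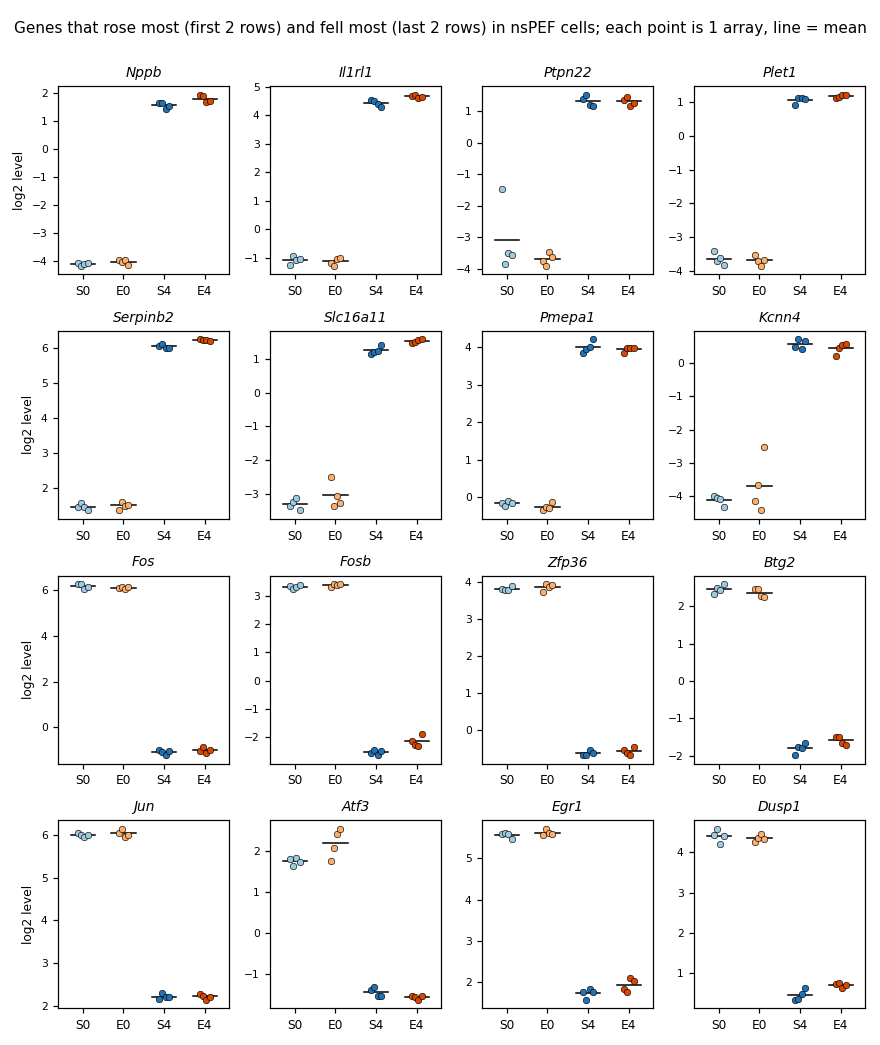
Level (log2, y axis) of the 8 genes with the greatest rise and the 8 with the greatest fall in nsPEF cells on each array of sham 0 h (S0), nsPEF 0 h (E0), sham 4 h (S4) and nsPEF 4 h (E4), with the mean of each group as a line. In every panel the arrays of 4 h lie apart from those of 0 h. Sham and nsPEF means of Jun at 4 h are 2.21 and 2.22, while single arrays of 0 h stand apart for Ptpn22 (sham replicate 1, -1.45) and Kcnn4 (nsPEF replicate 4, -2.52).

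Some probes were well above background at 1 time only, and their folds are lower bounds, taken from the dimmest signal that each array still placed well above background. On all 4 nsPEF arrays of 4 h and none of 0 h there were 220 probes, and in the reverse 562. Each passed the filter only through the time at which it was detected, so its direction is no test result. Of those with a symbol, 48 of 120 detected at 4 h and 51 of 308 detected at 0 h had the same pattern in sham cells. Sprr2h, a small proline-rich protein of the cornified envelope, had a lower bound of 37.8-fold for its rise. Its level at 4 h was 0.62, 0.25, 0.16 and 0.27, and no array of 0 h detected it, 1 of them having its spot marked and left out. Nipal1, a magnesium transporter, was at least 18-fold higher, Sema7a, a membrane-bound semaphorin, at least 14.8-fold higher and Bcl2l15 at least 16.1-fold higher by its named probe. In sham cells these bounds were 22.9, 20.2 and 20.1. A second probe of Bcl2l15 was well-detected and rose by 3.53. Lower at 4 h were C1qtnf7 (at least 21-fold), Lsmem1 (at least 16.3-fold), Klf10 (at least 6.5-fold by its named probe) and Pcnx2 (at least 5.87-fold). In sham cells Lsmem1 was at least 23-fold and Klf10 at least 8.11-fold lower. C1qtnf7 was still well above background on 4 sham arrays of 4 h and Pcnx2 on 2. For Klf10, a TGF-beta-inducible repressor, another probe was well-detected and changed by only -0.29, so the 2 probes disagree in size. Zfp750 was not well above background on all 4 nsPEF arrays of either time and was not tested.

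The genes named next had the smallest unadjusted p for the difference between the nsPEF change and the sham change among well-detected genes, 5 above and 5 below the sham change, and none passed after adjustment. Chac1 led the first set. It encodes an enzyme that degrades glutathione and is a target of ATF4. Its levels in nsPEF cells were 3.65, 3.49, 3.54 and 3.50 at 0 h and 3.78, 3.57, 3.47 and 3.52 at 4 h. In sham cells they were 3.72, 3.63, 3.61 and 3.72 at 0 h and 3.1, 3.24, 3.08 and 3.21 at 4 h. The nsPEF arrays of both times overlapped, whereas every sham array of 4 h lay below all other arrays of these groups. The change was 0.04 ± 0.06 (SE) in nsPEF and -0.52 in sham cells, a difference of 0.56 ± 0.09 (SE; 95% interval 0.38 to 0.74) with an unadjusted p of 2.72e-06 and an adjusted p of 0.0540 by limma. At 4 h alone nsPEF was 0.43 above sham (adjusted p = 0.00149), in a comparison in which 1106 probes were called (3.76%).

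The 250 bases before the start of Chac1 (RefSeq, GRCm38.p6, chr2:119350992-119351241, plus strand) are printed because Chac1 had the smallest p for the difference. TGACG and TGATGNAA, the core of the CCAAT-enhancer-binding protein and ATF response element bound by ATF4, are in capitals on either strand.
Chac1: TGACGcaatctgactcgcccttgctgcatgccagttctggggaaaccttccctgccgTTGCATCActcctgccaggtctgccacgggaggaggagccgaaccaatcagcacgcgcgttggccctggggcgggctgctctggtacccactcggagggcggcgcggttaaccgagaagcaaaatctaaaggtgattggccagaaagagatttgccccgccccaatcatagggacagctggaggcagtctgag
The letters TGATGNAA stood here on the minus strand, 193 bases before the start, and are found in 3.45% of the promoter windows. TGACG stood at the first base of the window, at 250, and the 2 matches did not overlap. The match is a description of the letters only.

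The other 4 genes above the sham change differed in where their groups parted. Rpph1, the RNA of ribonuclease P, read -0.09, -0.31, -0.32 and -0.49 in nsPEF and 0.61, 0.69, 0.77 and 0.38 in sham cells at 0 h. At 4 h it read 0.36, 0.47, 0.33 and 0.18 in nsPEF and 0.07, 0.28, 0.33 and 0.35 in sham cells. The groups were apart at 0 h (nsPEF minus sham -0.92, adjusted p = 0.0156, one of 32 probes called at 0 h, 0.109%) and overlapped at 4 h (0.08), so the nsPEF change was 0.64 and the sham change -0.36, with an adjusted p of 0.0966 for the difference of 1.00. 1700034P13Rik was lower in nsPEF than in sham cells at 0 h, by -0.43 (adjusted p = 0.0742), and higher at 4 h, by 0.35 (adjusted p = 0.0407). It changed by 0.98 in nsPEF and by 0.19 in sham cells, with an adjusted p of 0.0540 for the difference of 0.78. Slc28a1, a concentrative nucleoside transporter, changed by 0.56 and -0.02, and its nsPEF minus sham difference was -0.34 at 0 h and 0.24 at 4 h, neither called. Prb1, a salivary proline-rich protein gene, changed by 0.80 and -0.14 and stood apart mainly at 4 h (nsPEF minus sham 0.70, adjusted p = 0.0144). Both missed the threshold for the difference (adjusted p = 0.139 and 0.152).

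The 5 genes below the sham change were already falling or flat in sham cells. Pknox2, a homeodomain transcription factor, read -0.40, -0.39, -0.33 and -0.26 at 0 h and -3.67, -3.58, -3.42 and -3.51 at 4 h in nsPEF cells. The sham arrays of 4 h read -2.82, -2.97, -2.86 and -2.81, all above the nsPEF arrays. Its nsPEF change was -3.20 ± 0.07 (SE) and its sham change -2.65, a difference of -0.55 (95% interval -0.75 to -0.36, adjusted p = 0.0540). Rab3a, a small GTPase of vesicle release, read -1.92, -2.0, -1.89 and -1.88 at 4 h in nsPEF and -1.44, -1.51, -1.54 and -1.52 in sham cells, again without overlap. It changed by -1.57 and -1.26 (adjusted p = 0.0872 for the difference of -0.31). Pld1, a phospholipase, changed by -2.50 and -2.11 (adjusted p = 0.0883). Lmbr1 changed by -1.77 and -1.26 by this probe, and its difference of -0.50 was not shared by a second, dimmer probe, at 0.05. Nuak1, a kinase of the AMPK family, changed by -0.53 and -0.12.

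The size of the difference for the genes below the sham change that were dim at 4 h depended on the background correction. With normexp on the spot intensities the difference was -0.08 for Pknox2, -0.15 for Rab3a, -0.13 for Pld1 and 0.01 for Lmbr1, whereas Chac1, which was bright throughout, kept between 0.48 and 0.60 under the 36 alternatives that gave it a value. The adjusted p of Chac1 ranged from 0.00750 to 0.337 over them and was under 0.05 in 10. Above the sham change, 1700034P13Rik, Slc28a1 and Prb1 were dim as well, with nsPEF means at 4 h of -1.87, -1.34 and -2.45. Their differences with normexp are not given here.

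**Figure D3:**
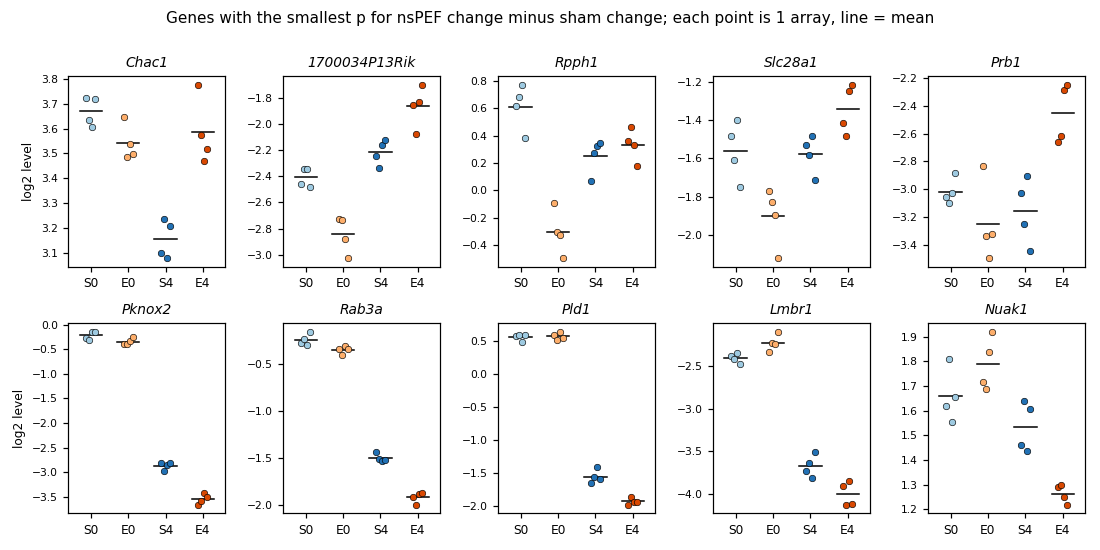
Level (log2, y axis) of the 10 well-detected genes with the smallest p for the difference of the changes, on each array of sham 0 h (S0), nsPEF 0 h (E0), sham 4 h (S4) and nsPEF 4 h (E4), with the mean of each group as a line. Chac1 is low on the sham arrays of 4 h alone (mean 3.15 against 3.54 to 3.67 in the other groups), and Rpph1 is low on the nsPEF arrays of 0 h alone (mean -0.30).

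Chac1 belongs to a list of 32 genes of the integrated stress response, all tested. In nsPEF cells 12 rose, 14 fell and 6 did not pass, with a median change of 0.03. In sham cells 10 rose and 16 fell, with a median of -0.22. Over all tested genes 37.4% rose and 38.4% fell in nsPEF cells. The difference between the changes was above 0 in 28 of 32, against 6787 of 13934 tested genes, and its median was 0.17 against -0.00 over all genes. No member passed for the difference, and 10 had an unadjusted p under 0.05 above the sham change and 1 below it, against 588 above and 613 below among the 13934 tested genes. Without sham replicate 4 of 4 h, the array with the highest 75th percentile (787), 27 of 32 differences were above 0 with a median of 0.15, and by quantile normalization 27 with a median of 0.11.

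Trib3, Cebpg, Nupr1 and Fgf21 are named after their values were seen. Trib3, a pseudokinase that acts in a feedback loop on ATF4, read 3.26, 3.14, 3.38 and 3.35 at 0 h and 3.39, 3.40, 3.14 and 3.24 at 4 h in nsPEF cells, against 2.94, 2.96, 2.79 and 2.83 in sham cells of 4 h. The nsPEF arrays of the 2 times overlapped and all lay above the sham arrays of 4 h. Its change was 0.01 in nsPEF and -0.37 in sham cells, with nsPEF 0.41 above sham at 4 h (adjusted p = 0.0106). Nupr1, a stress-induced nuclear protein gene, changed by -0.03 in nsPEF and -0.31 in sham. Fgf21, a stress-induced hormone, fell by 1.63 in nsPEF against -2.05 in sham. Cebpg, a bZIP partner of ATF4, rose by 0.54 in nsPEF against 0.23.

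Among the 12 members that rose in nsPEF cells, Slc7a1, a cationic amino acid transporter, rose most, by 1.47 against 1.30 in sham, Slc7a11, the cystine transporter, by 1.30 against 0.92, Mthfd2, of mitochondrial folate metabolism, by 0.72 against 0.54, and Asns, asparagine synthetase, by 0.27 against 0.07. Among the 14 that fell, Ppp1r15a, the phosphatase subunit that restores translation, changed by -2.15 against -2.29 in sham, Ddit3 (CHOP) by -0.45 against -0.57, and Gdf15, a secreted stress cytokine, by a fitted -2.20 against -2.54. Gdf15 was well above background on 1 of 4 nsPEF arrays and 0 of 4 sham arrays of 4 h, so its fitted values are no measured sizes, and with normexp its nsPEF change was -0.57. Atf4 itself changed by 0.13 (adjusted p = 0.272) against -0.12. Members below the sham change were Ddit4, Vldlr, Stc2 and Cth, of which Ddit4, an inhibitor of mTORC1, changed by -0.13 against 0.07. Of 17 amino acid transporters in a list of their own, which shares members with this one, 11 rose and 5 fell. In sham cells 10 rose and 5 fell, and the median was 0.38 in nsPEF against 0.23 in sham.

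**Figure D4:**
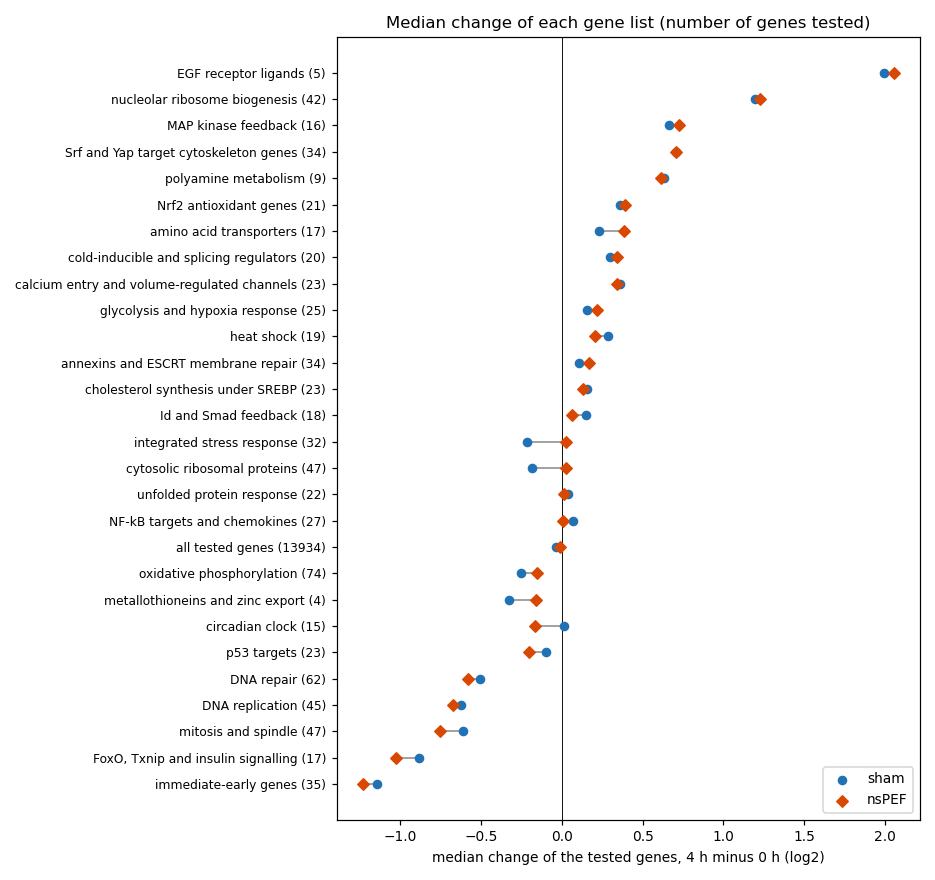
Median change from 0 h to 4 h (log2, x axis) of the tested genes of each list (y axis, number of genes in parentheses) in sham cells (circles) and nsPEF cells (diamonds), with all tested genes for reference. The 2 symbols of a list lie close together, and the gap is 0.24 for the integrated stress response, from -0.22 to 0.03, and 0.21 for the cytosolic ribosomal proteins, from -0.19 to 0.02.

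Nucleolar genes of ribosome biogenesis rose as a group in nsPEF cells. Of 42 tested, 41 rose, 27 of them at least 2-fold (9.71% of all tested genes rose so), and none fell, with a median of 1.23 against 1.20 in sham. Rrp12, a ribosomal RNA processing factor, rose most, by 2.28 ± 0.07 (SE) in nsPEF and by 2.39 in sham. The nucleolar helicase gene Ddx21 rose by 2.23 and Nop2, a methyltransferase of ribosomal RNA, by 1.76. The proteins of the ribosome itself did not follow. Of 47 genes of cytosolic ribosomal proteins, 2 rose and 45 did not pass in nsPEF cells, while in sham cells 1 rose and 20 fell. Without nsPEF replicate 2 of 0 h, 6 rose. Their difference was above 0 in 46 of 47 with a median of 0.23, but in 19 of 47 with a median of -0.01 by quantile normalization, and the median was 0.10 without sham replicate 4 of 4 h.

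The mitochondrial respiratory chain and cell cycle genes were lower at 4 h. For scale, 37.4% of all 13934 tested genes rose and 38.4% fell in nsPEF cells. Of 74 tested genes of oxidative phosphorylation, 43 fell and none rose in nsPEF cells, all by less than 2-fold, with a median of -0.16 against -0.25 in sham, where 62 fell. The count in nsPEF cells was 18 by scaling on the spike-in RNA and 68 by quantile normalization, and 28 without replicate 2 of every group. For mitosis and the spindle, 44 of 47 fell, with a median of -0.76 against -0.61 in sham. Spc25, a kinetochore subunit, fell most (-1.68), followed by Cenpf (-1.63), and Bub3, a checkpoint protein gene, rose by 0.42. Of 45 genes of DNA replication 39 fell, Tk1, thymidine kinase, by most (-1.48), and 4 rose, among them Orc2 of the origin recognition complex (1.30). Of 62 DNA repair genes 43 fell, 18 at least 2-fold (10.3% of all tested genes fell so), and 10 rose, with Neil3, a DNA glycosylase, at -2.03 and Lig4, the ligase of end joining, at 1.45. The difference of the changes was below 0 in most members of mitosis and spindle (above 0 in 6 of 47) and of DNA repair (above 0 in 16 of 62), and without replicate 3 of every group these were 14 and 26. Over all tested genes it was above 0 in 6787 of 13934.

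Of 34 target genes of Srf and Yap in the cytoskeleton, 28 rose and 2 fell, against 28 and 4 in sham cells. Over all tested genes 37.4% rose and 38.4% fell in nsPEF cells, and 35.3% and 39.7% in sham cells. Fhl2, a LIM-domain cofactor, rose by 3.14 against 3.00 in sham, Ankrd1 by 2.32 and Itga5, the fibronectin receptor subunit, by 1.68, while Myl9, a myosin light chain gene, changed by -0.89. Of 5 tested ligands of the EGF receptor 4 rose, against 3 in sham cells. Ereg rose by 2.05 and Hbegf by 1.84. The other genes that rose, Areg and Btc, were not well above background on any nsPEF array of 0 h. They entered the test only through the arrays of 4 h, so their direction is no test result. Their levels at 4 h were at least 3.94-fold and at least 2.24-fold higher. With a floor at the background Btc changed by 1.16 and did not pass (adjusted p = 0.123). Among 21 Nrf2 antioxidant genes 13 rose and 1 fell, against 11 and 2 in sham cells. Srxn1, sulfiredoxin, changed by 1.93, Hmox1, heme oxygenase, by 1.80 against 1.58 in sham, and Cat, catalase, by -0.49. Of 25 genes of glycolysis and hypoxia 15 rose and 2 fell, against 12 and 2 in sham cells.

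Of 19 tested heat shock genes 10 rose and none fell, against 12 and 1 in sham cells. For scale, 37.4% of all tested genes rose and 38.4% fell in nsPEF cells. Cryab, a small chaperone gene, rose most among the heat shock genes (1.38), and 5 listed genes including Hspa1a and Hspa1b were not tested. Of 34 annexin and ESCRT genes of membrane repair 17 rose and 9 fell (14 and 7 in sham cells), with a median of 0.17 against 0.10 in sham. Dysf, dysferlin, rose most (1.33), by 0.79 without replicate 1 and 1.88 without replicate 2 of every group and by 0.47 with normexp, and it was above background on 3 of 4 nsPEF arrays of 0 h. Its nsPEF level at 4 h was -2.32 on replicate 1 and -4.07 to -3.47 on the others. Cavin2, a caveolar coat gene, fell most (-1.59). Of 23 calcium entry and volume-regulated channels 14 rose and 6 fell (13 and 6 in sham cells). Of 23 p53 targets 8 rose and 13 fell (8 and 10 in sham cells), from Aen, an exonuclease gene, at 1.90 to Btg2. Of 15 clock genes 7 rose and 7 fell (7 and 6 in sham cells). Dbp, an output factor of the clock, changed by -1.81 and Ciart, a repressor of the clock, by 2.63. Metallothionein and zinc export genes held 1 rise and 2 falls among 4 tested (1 and 3 in sham cells). Slc30a1, a zinc exporter, rose by 0.27 ± 0.07 (SE) in nsPEF cells and by 0.24 in sham. Without replicate 2 of every group it changed by 0.17 in nsPEF cells and did not pass (adjusted p = 0.0679).

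The difference of the changes moved with the level of a probe. When the well-detected probes were put into 10 classes of equal size by their mean level over the 16 arrays, the median difference was 0.11 in the dimmest class, with 61.7% of probes above 0, between -0.03 and 0.04 in the next 8, and 0.08 in the brightest, with 76.6% above 0. Of the ribosomal protein genes 46 of 47 and of the oxidative phosphorylation genes 67 of 74 were in the brightest class, as were 11 of 32 of the integrated stress response and 12 of 47 of mitosis and spindle. The part of signal level in the list differences was not tested.

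**Figure D5:**
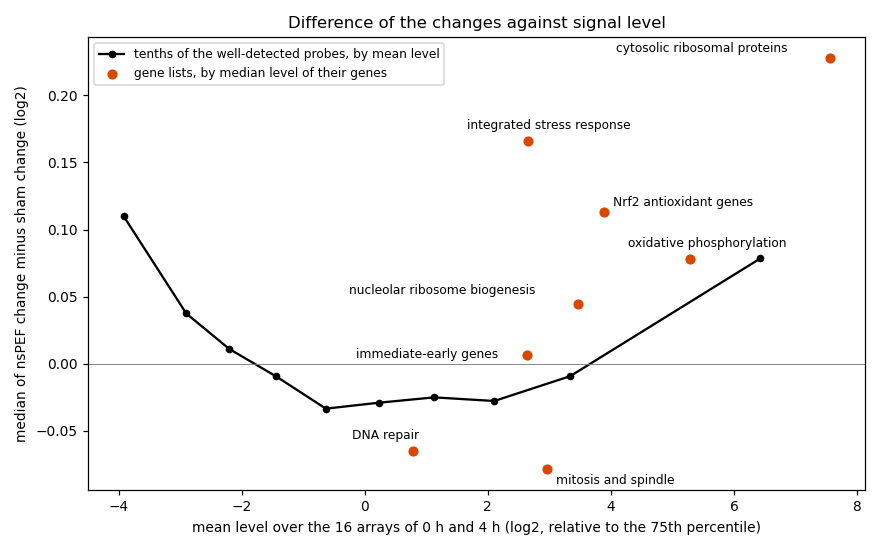
Median of the nsPEF change minus the sham change (log2, y axis) in the 10 classes of well-detected probes by mean level (line, plotted at the middle of the range of each class, x axis in log2 relative to the 75th percentile) and in 8 gene lists at the median level of their genes (orange points). The line is highest at the dim end (0.11) and rises again at the bright end (0.08), where the ribosomal proteins lie (0.23), and the integrated stress response (0.17) lies above it in the middle.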

How the data were processed

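TM3 RNA was measured on one-colour arrays, 4 per group. The authors read the scans with Agilent Feature Extraction 12.0, and per the file headers the deposited processed signal intensity is background-subtracted and unscaled between arrays. Spots marked as not uniform or as deviating were left out, spots of a probe were averaged, log2 was taken and the 75th percentile of each array was subtracted. Flags (another number, per spot) came from the same deposited files. A deposited table of log2 values, made by the authors with a 75th percentile shift and a median baseline, was an alternative. Its 56745 lines were matched by probe name to 56605 probes and 0 columns were left over. Its centring of each probe on a baseline removes levels but not differences, and its columns had medians from -0.203 to 0.289.

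Symbols came from RefSeq accessions, for 34566 of 56605 probes (61.1%), and the remaining probes stay unnamed here. One mean per group was fitted to all 24 arrays in R 4.3.3 by its limma package (version 3.58.1), contrasts were tested and p values adjusted by Benjamini-Hochberg over all tested probes at 0.05. A plain linear model without moderation was an alternative. It tested the same contrasts of 0 h and 4 h, whereas the study's two-way model with interaction covered 3 times and used another filter of genes. The step was tested on simulated data with independent normal noise, in which 200 of 29431 probes were given an added change. There the test of the difference of changes called 28.5% of added differences of 0.5 and 75% of those of 1. For the nsPEF change itself these were 63.5% and 89.5%. In the data 70.5% of probes were called for the nsPEF change. The adjustment depends on that share, so the simulated shares are not the recovery in this experiment. A list takes for each gene the probe with the highest mean. Named genes are the 8 that rose and the 8 that fell most, the 5 on each side with the smallest p for the difference of changes, the 4 with the largest bound in each direction, the member of each list that rose or fell most, and Fos and Zfp750. The comparison, lists and tests were chosen with earlier results of these data known. Replicates are labelled as biological. Precision is limited by their number and by how far signals stand above background.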

Additional observations from a re-analysis of the deposited data

Results flagged for a closer look

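One array stood apart from the other 3 of its group, by the gap to the nearest of them over the range of the group, in 17 of 338 sets of 4 values from the named genes and the arrays (5.03%), and chance marks about 1 in 20. No explanation was weighed for them. Among arrays, the 75th percentile of the processed signal was 787 on sham replicate 4 of 4 h. Among nsPEF levels of 0 h, the array apart read 3.33 for Fosb and -1.86 for Fhl2. Among those of 4 h it read 3.84 for Pmepa1, 1.96 for Lrrc8d, a volume-regulated channel subunit, and -7.05 for Klhl24. Sham levels of 0 h that stood apart were -1.45 for Ptpn22, 5.49 for Egr1, 0.489 for Pld1, 1.26 for Orc2, -0.286 for Mt3, 2.64 for Itpr1 and 2.63 for Tgfb3. Those of 4 h were 0.920 for Plet1, -1.16 for Nipal1, 2.31 for Atf6 and 2.37 for Orc2.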

How the results depend on the processing

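The counts of changed probes within each treatment moved little except where fewer probes were tested. With 1 probe per gene symbol 10683 were called in nsPEF and 10582 in sham cells (2784 at least 2-fold in nsPEF), and with the middle rows of spots alone 10530, 10520 and 2753. With normexp the count of at least 2-fold changes in nsPEF was 2214. Leaving out arrays gave 18884 to 21104 calls in nsPEF cells, and the slope of the nsPEF change on the sham change ranged from 0.941 (normexp) to 1.00 over the settings that kept all arrays. No called change of a named gene reversed.

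For the difference between the nsPEF and sham changes the count of 0 became 85 with a floor at the background, 31 with array quality weights, 16 by quantile normalization, 6 with the 75th percentile over probes detected on all arrays, 5 on the probes of all 16 arrays refitted alone, 5 with 1 probe per gene symbol, 4 with no filter, 2 with the plain linear model, 1 on the 16 arrays of 0 h and 4 h and 1 with rows of spots centred. Without 1 array or replicate it was 0 to 16, the highest without nsPEF replicate 1 of 0 h. The cause was not tested.

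Sham and nsPEF at 4 h differed at 1106 probes, and at 2053 by quantile normalization, 5033 with spike-in scaling, 1676 with the floor, 10340 with no filter, 1727 in the deposited table, 443 on 16 arrays and 1664 with weights, or 51 (without replicate 3 of every group) to 1244 with an array or replicate left out. At 0 h the count of 32 became 717 with spike-in scaling, 12 with normexp, 3050 with no filter, 17 with 1 probe per symbol, 10 with the plain model, 13 on 16 arrays, 492 with weights and 18 in the middle rows, or 1 (without replicate 2 of every group) to 91 (without sham replicate 4 of 4 h) with an array or replicate left out.

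Same-numbered arrays of 0 h and 4 h did not deviate together in nsPEF cells (correlations of -0.116 to -0.00571), and those of nsPEF and sham arrays of 1 time ran from -0.130 to 0.276 at 0 h and from -0.00986 to 0.256 at 4 h. The study describes the tests of a replicate, apart from adhesion, as run in parallel on 1 cell suspension. The labels do not say so and not every pair deviated together, so the numbers were not taken as pairs. With the replicate block 1 probe, Pknox2, passed for the difference of the changes, and the count at 0 h became 63, while those of time and of 4 h stayed within 1.5 times. The smallest p of an exact test of 4 against 4 arrays is 0.0286, and levels near the background are the least sure.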

Other observations

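Other lists were measured in the same comparison of nsPEF cells at 4 h with 0 h, in which 37.4% of all tested genes rose and 38.4% fell. Of 18 Id and Smad feedback genes 9 rose and 9 fell, as in sham cells. They ran from Tgfb3, a TGF-beta ligand, at -2.72 and Bmp4 at -2.43 to Smurf1, a ubiquitin ligase of the pathway, at 1.64. Of 17 genes of FoxO, Txnip and insulin signalling 4 rose and 10 fell (3 and 10 in sham cells). Their median was -1.03 against -0.89 in sham, with Txnip, the thioredoxin-interacting protein gene, at -3.06 and Bcl6, a transcriptional repressor, at 1.34. Of 9 polyamine genes 7 rose and 2 fell (6 and 2 in sham cells). Smox, spermine oxidase, rose most (1.74), and Odc1, ornithine decarboxylase, rose by 1.36.

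Of 27 NF-kB targets and chemokines 13 rose and 12 fell, against 11 and 12 in sham cells. The chemokine gene Cxcl10 changed by -3.45 in nsPEF and in sham cells. Cxcl2 was well above background on no array of 4 h and was at least 3.05-fold lower then in nsPEF and at least 4.54-fold lower in sham cells, while the growth factor gene Csf3 rose by 2.17. Of 23 cholesterol synthesis genes under SREBP 11 rose and 9 fell (12 and 9 in sham cells), from Dhcr7 at -1.27 to Hsd17b7 at 1.13. Of 22 genes of the unfolded protein response 9 rose and 9 fell (8 and 9 in sham cells). None changed at least 2-fold in nsPEF cells, and Atf6, the membrane-bound sensor of this response, changed by 0.95. Of 20 cold-inducible and splicing regulators 13 rose and 3 fell, against 14 and 3 in sham cells. Cirbp, the cold-inducible RNA-binding protein gene, fell most (-1.64), although another of its probes changed by -0.22 and did not pass (adjusted p = 0.0720).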
